A study of Mus musculus with 4 samples.

Results

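Peaks of trimethylated lysine 4 on histone H3 (H3K4me3) at the starts of non-coding transcripts, away from protein-coding promoters, were examined in mouse heart. A peak was taken where its edge lay more than 1000 bp from every protein-coding transcript start and no more than 1000 bp from the start of another transcript in the GENCODE annotation of mm10, a rule that used position only and no measured height. Of 24996 peaks in the list called replicated for both pools, 1867 (7.47%) met it. Another 15755 peaks (63.0%) lay within 1000 bp of a coding start and 7374 (29.5%) near no annotated start. Heart tissue came from female B6CASTF1/J mice, a cross of C57BL/6J and CAST/EiJ, aged 2 months, with no treatment and no other genotype, tissue or age. The 4 libraries were made from 2 pools of tissue, G and H, each pool combining 2 heart biosamples and giving 2 libraries as technical replicates, and all labels named 1 donor record, so nothing in them shows that the pools held separate animals. The deposited values were peak lists of each pool and of both together, so there was no value per library, per allele of the cross or per cell type, and sequencing depth is unknown here. The spread between pools may therefore be technical.

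H3K4me3 marks the nucleosomes beside active transcription start sites. It is laid down by the SET1 and MLL methyltransferase complexes, which are drawn to unmethylated CpG-rich DNA and to the transcribing polymerase. Long non-coding RNAs are made by RNA polymerase II from promoters that carry the same mark as those of messenger RNAs, and in heart several of them lie beside genes of the cardiac transcription factors or the contractile proteins. Primary transcripts of microRNAs usually start well upstream of the hairpin, often in a host gene, so that the mark belongs to the host's promoter and not to the annotated start of the hairpin. Chromatin immunoprecipitation does not read strand, and a peak that touches several starts was therefore not assigned to 1 RNA. Where a gene is named for a peak, it is the non-coding gene with the start nearest the summit. In whole heart, fewer marked cells and less mark per cell cannot be told apart.

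Among the 1867 peaks, 1264 (67.7%) lay at the start of a gene annotated as non-coding or as a pseudogene, and 603 (32.3%) lay only at a non-coding transcript of a protein-coding gene, such as a retained intron or a processed transcript. The 1264 peaks named 1111 different genes of 13 grouped types, of which 133 genes had several peaks, and 166 peaks lay within reach of 2 or more non-coding genes, 6 at most. The tissue label was checked at coding promoters. Myh6, Tnnt2, Actc1, Nkx2-5 and Gata4, genes of the heart muscle cell, had promoter peaks of fold enrichment 10.3, 5.39, 9.04, 9.43 and 15.5, while Alb of liver, Ptprc of blood cells and Neurod1 of neurons had none in the replicated list. Fold enrichment is the signal value that the authors deposited per peak, taken as a ratio to a control, and each pool's list has its own scale.

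The starts that the results turn on differ in their DNA, and 5 are shown as windows from 250 bases before to 50 bases after the start, 5′ to 3′ on the transcribed strand, on mm10, with CpG dinucleotides in capitals. Snhg6, a host gene of small nucleolar RNAs, stands for CpG-rich starts (chr1:9944069-9944368, minus strand). Xist, the RNA that coats the inactive X chromosome (chrX:103483205-103483504, minus strand), and Malat1, an abundant nuclear RNA of splicing speckles (chr19:5802623-5802922, minus strand), are the best known long non-coding genes of the set. Mhrt, the myosin heavy chain associated RNA transcript (chr14:54968537-54968836, plus strand), and D830005E20Rik, which runs antisense within Trdn (chr10:33256308-33256607, minus strand), carried the widest peaks at heart contraction genes.
Snhg6: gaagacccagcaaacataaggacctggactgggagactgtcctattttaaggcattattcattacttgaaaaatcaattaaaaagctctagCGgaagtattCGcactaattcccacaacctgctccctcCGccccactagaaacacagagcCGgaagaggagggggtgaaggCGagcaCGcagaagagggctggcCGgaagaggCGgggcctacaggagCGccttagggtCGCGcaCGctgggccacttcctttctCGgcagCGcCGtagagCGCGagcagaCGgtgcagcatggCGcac
Xist: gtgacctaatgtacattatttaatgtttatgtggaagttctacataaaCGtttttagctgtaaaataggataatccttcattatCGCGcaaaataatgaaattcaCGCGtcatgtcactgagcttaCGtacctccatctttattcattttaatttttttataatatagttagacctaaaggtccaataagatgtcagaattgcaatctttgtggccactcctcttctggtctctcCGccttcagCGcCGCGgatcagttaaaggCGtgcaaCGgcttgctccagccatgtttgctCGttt
Malat1: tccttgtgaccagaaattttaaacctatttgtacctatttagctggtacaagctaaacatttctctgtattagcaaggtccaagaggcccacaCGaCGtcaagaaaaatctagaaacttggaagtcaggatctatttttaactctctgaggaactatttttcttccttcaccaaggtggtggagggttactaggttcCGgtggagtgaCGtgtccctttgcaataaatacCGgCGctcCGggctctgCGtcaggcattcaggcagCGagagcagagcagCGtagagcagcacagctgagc
Mhrt: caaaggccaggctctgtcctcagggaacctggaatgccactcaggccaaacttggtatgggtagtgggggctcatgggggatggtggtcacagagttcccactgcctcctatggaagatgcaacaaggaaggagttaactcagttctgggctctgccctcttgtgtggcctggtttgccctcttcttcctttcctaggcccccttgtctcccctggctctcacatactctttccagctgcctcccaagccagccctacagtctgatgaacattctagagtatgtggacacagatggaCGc
D830005E20Rik: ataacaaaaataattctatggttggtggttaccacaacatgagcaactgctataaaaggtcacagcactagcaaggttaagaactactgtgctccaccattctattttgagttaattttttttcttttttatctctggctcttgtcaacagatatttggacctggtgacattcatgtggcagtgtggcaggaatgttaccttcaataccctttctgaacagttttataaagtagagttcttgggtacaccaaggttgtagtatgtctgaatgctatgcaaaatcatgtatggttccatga
The Snhg6 window held 19 CpG dinucleotides, Xist 13, Malat1 10, Mhrt 1 and D830005E20Rik 0, and all 5 starts lay inside a peak. The ETS letters CCGGAAG occurred 2 times in the Snhg6 window, on either strand, and in none of the other 4 windows. TATAAA occurred 3 times in the D830005E20Rik window and 1 time in that of Xist, counting both strands.

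Mature microRNA sequences from RefSeq (GRCm38.p6) are shown for the hairpins whose surroundings differed most, with the seed, bases 2 to 8, in capitals. The first trio are the microRNAs encoded within myosin heavy chain genes, of which Mir208b had a peak within 1000 bp and Mir208a and Mir499 had none in the replicated list or in either pool's list.
mmu-miR-208b-3p: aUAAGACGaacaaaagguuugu
mmu-miR-208a-3p: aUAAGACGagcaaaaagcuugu
mmu-miR-499-5p: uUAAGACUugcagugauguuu
mmu-let-7i-5p: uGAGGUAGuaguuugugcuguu
mmu-miR-22-3p: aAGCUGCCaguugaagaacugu
mmu-miR-193a-3p: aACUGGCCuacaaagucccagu
mmu-miR-125b-5p: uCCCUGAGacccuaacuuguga
mmu-miR-210-3p: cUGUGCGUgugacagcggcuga
mmu-miR-199a-5p: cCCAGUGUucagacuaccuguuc
mmu-miR-23a-3p: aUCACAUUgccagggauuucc
mmu-miR-27a-3p: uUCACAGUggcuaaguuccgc
Of these 11 sequences, miR-208b-3p and miR-208a-3p share the seed UAAGACG, the bases that pair with a target, while only the hairpin of miR-208b had a peak nearby. The seed of miR-499-5p is UAAGACU, and every other seed occurred 1 time. Of the hairpins shown, those of Mirlet7i and Mir193a lay inside the highest peaks, and Mir23a and Mir27a, which share 1 peak, had the lowest within 1000 bp. Mir22 lay inside a peak of 4.36, and the peak of its host gene, 17.5, was within 1000 bp.

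Peaks at non-coding starts were lower, narrower and poorer in CpG than peaks at coding starts, and higher, wider and richer in CpG than peaks near no start. Their median fold enrichment was 4.75, against 13.4 at coding starts and 3.60 near no start, in the replicated list. Median width was 699 bp, against 1418 bp at coding starts and 481 bp near no start. A peak was called high in CpG where the 1001 bp around the summit held at least 0.6 of the CpG dinucleotides expected from its base composition and at least 50% G and C. This held for 26.1% of peaks at non-coding starts, 70.0% at coding starts and 9.18% near no start, with 48.8% of all 24996 peaks as the background. In pool G's own list, 1860 peaks at non-coding starts had a median fold enrichment of 5.68, against 16.1 at coding starts. In pool H's own list, 1467 peaks at non-coding starts had a median of 5.21, against 11.3 at coding starts. The means over the pools were 5.44 ± 0.336 at non-coding starts and 13.7 ± 3.35 at coding starts (SD, n = 2 pools). Widths averaged 760 ± 54.8 bp at non-coding starts and 1420 ± 185 bp at coding starts (SD, n = 2 pools). Both pools gave lower and narrower peaks at non-coding starts. With 2 pools the exact sign-flip permutation test, two-sided, gave p = 0.5 for each measure, which is the smallest it can give, so neither difference can be tested at the usual threshold.

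**Figure D1:**
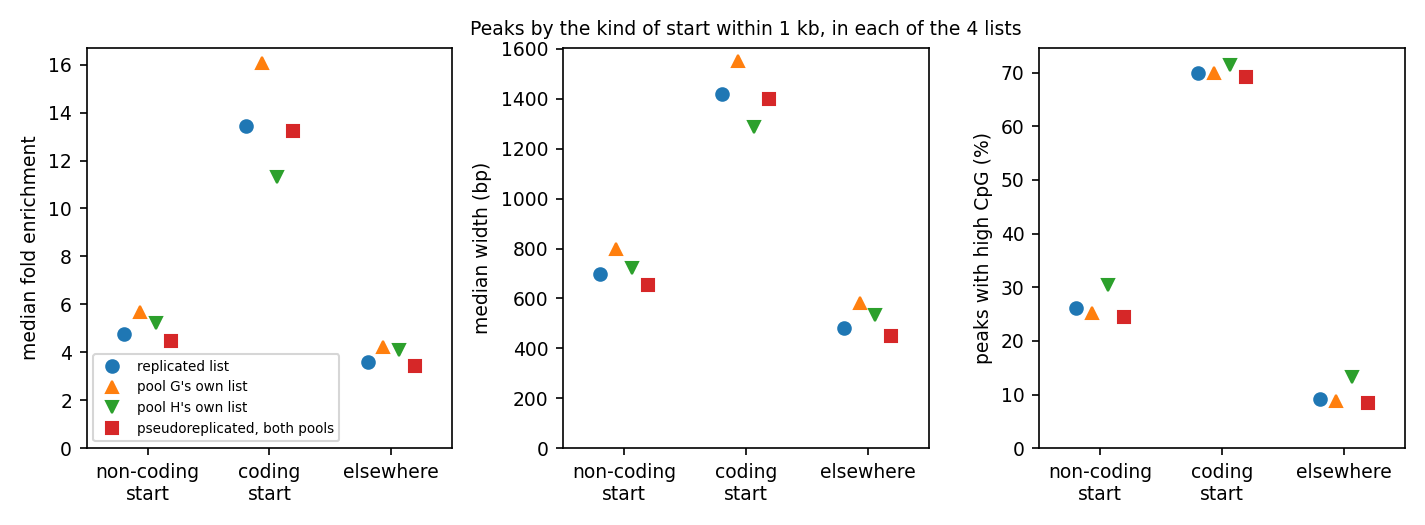
Median fold enrichment, median width in bp and percent of peaks with high CpG (left to right), each from 0, for peaks at non-coding starts, at coding starts and elsewhere, with 1 point for each of the 4 deposited lists. In every list the points of non-coding starts lie below those of coding starts and above those of peaks elsewhere.

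The gap was present within each CpG class and was narrower there. Among high-CpG peaks, those at starts of non-coding genes had a median fold enrichment of 9.14 (370 peaks), those only at non-coding transcripts of coding genes 8.97 (118 peaks) and those at coding starts 15.3 (11028 peaks). Among low-CpG peaks the median was 4.32 at starts of non-coding genes (894 peaks), 3.66 at non-coding transcripts of coding genes (485 peaks) and 7.70 at coding starts (4727 peaks). Peaks that held a non-coding gene's start were higher than those that only came within 1000 bp of one. The 711 peaks that held such a start had a median fold enrichment of 7.09 and a median width of 1015 bp, against 3.76 and 491 bp for those that did not. A coding start was held by 80.6% of the 15755 peaks at coding starts, and a non-coding gene's start by 56.3% of the 1264 peaks.

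The summit lay on the transcribed side of most long non-coding starts and on the other side of most small RNA starts. For 501 peaks that held the start of their long non-coding gene, the summit was downstream in 70.3%, at a median of 91 bp past the start. For 59 peaks that held the start of a small RNA gene (microRNA, small nuclear, small nucleolar or miscellaneous RNA), it was downstream in 33.9%, with the median summit 108 bp upstream. The same measure at 12697 peaks holding a coding start gave 82.4% downstream and a median of 143 bp past it. Only 7.69% of the 13 peaks that held a small nuclear RNA start, which is 1 peak, had the summit downstream. Small nuclear RNA genes exist in many near-identical copies, and whether reads were placed on the right copy was not tested.

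Motifs at the starts were counted in the same windows of 300 bases, on both strands, over distinct starts, some of which overlap or belong to 1 gene. The GC box GGGCGG was present at 41.5% of 958 long non-coding starts inside such peaks, against 8.31% of 10301 long non-coding starts over 1000 bp from coding starts and outside any peak. Of 28973 coding starts inside a peak 66.7% held it, and of all 54052 coding starts 43.3%. The ETS letters CCGGAAG stood at 11.0% of long non-coding starts inside the peaks and 2.83% of those outside any peak, with 17.6% at coding starts inside a peak. TATAAA ran the other way, with 12.4% of marked and 16.1% of unmarked long non-coding starts and 5.46% of marked coding starts. The GATA letters AGATAA were at 9.92% of marked and 15.5% of unmarked long non-coding starts. The letters CTANNNNTAG were at 4.80% of marked and 4.25% of unmarked ones, with 3.34% of all coding starts. Any base was allowed at each N, so they are looser than sites of MEF2, a muscle transcription factor family. MEF2 sites proper were not counted. The median window held 12 CpG dinucleotides at marked long non-coding starts, 3 at unmarked ones and 22 at marked coding starts. Motifs that hold a CpG move with that content, and their part in it was not tested.

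Long non-coding genes were marked more often than small RNA genes and pseudogenes. Of 29467 non-coding genes with no coding start within 1000 bp, 1230 had such a peak, a background of 4.17%. Genes typed processed transcript, a class for RNAs with no open reading frame that fit no narrower type, were marked in 114 of 476 cases (23.9%). Intergenic long non-coding genes (lincRNA) were marked in 439 of 4933 (8.90%) and antisense genes in 179 of 2012 (8.90%). Across all long non-coding types the share was 9.67%, or 751 of 7768, with an exact 95% Clopper-Pearson interval of 9.02% to 10.3%. MicroRNA genes stood at the background, with 82 of 1968 (4.17%), and so did TEC genes, a provisional class awaiting experiments, with 118 of 2945 (4.01%). Small nucleolar RNA genes were marked in 51 of 1483 (3.44%) and small nuclear RNA genes in 33 of 1348 (2.45%). Processed pseudogenes, copies of messenger RNAs inserted by retrotransposition, came to 105 of 10052 (1.04%), and other pseudogenes to 54 of 2306 (2.34%). Neighbouring genes can share 1 peak, so the intervals cover counting error of genes only.

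**Figure D2:**
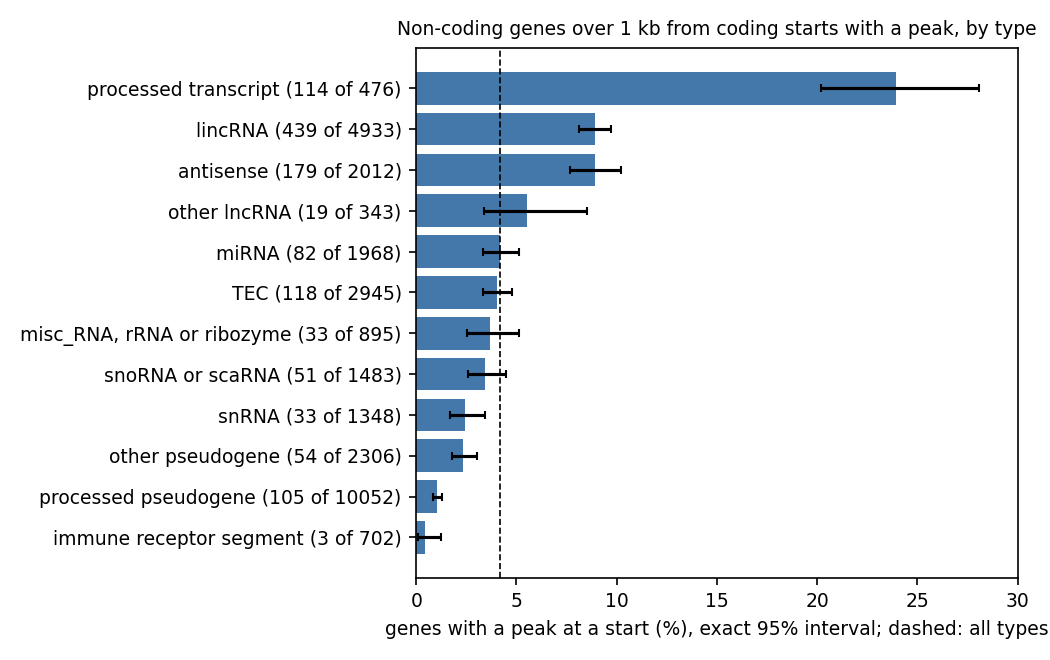
Percent of non-coding genes over 1000 bp from every coding start that had a peak within 1000 bp of a start, by gene type, with exact 95% intervals and the counts beside each name. Bars start at 0, the dashed line is the 4.17% over all types, and processed transcripts reach 23.9%, against 1.04% for processed pseudogenes.

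Height followed type in another order. Median fold enrichment was 7.15 for 142 peaks at processed transcripts, 5.66 for 464 at lincRNA genes and 4.23 for 232 at antisense genes. Other pseudogenes, unprocessed and polymorphic ones among them, reached 7.40 over 52 peaks, of which 57.7% were high in CpG, while 106 peaks at processed pseudogenes had a median of 4.47. Small nuclear RNA genes had 6.82 (28 peaks), microRNA genes 5.35 (62 peaks) and TEC genes 4.05 (117 peaks). The 603 peaks at non-coding transcripts of coding genes had 4.21, among the lowest. A fold enrichment of 10 or more was reached by 332 peaks at non-coding starts (17.8%), against 65.8% of those at coding starts and 44.3% of all peaks.

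The strongest peak of all lay at Snord104, a small nucleolar RNA gene on chromosome 11 at chr11:106500840-106501842, with a fold enrichment of 26.1, and 30.3 in pool G and 22.9 in pool H. Next came Aff1 at a non-coding transcript 36.4 kb from the nearest coding start, which belongs to 1700016H13Rik, with 24.2, and the TEC gene Gm5112 near Foxj2 with 24.0. Dleu2, the host gene of a microRNA cluster that is deleted in chronic lymphocytic leukaemia in human, followed with 22.9 at chr14:61680238-61684752, and had a further peak of 20.4. Mical3, at a non-coding transcript upstream of its coding start, and the processed transcript 1810032O08Rik both had 22.7. 9430091E24Rik, Rab10os and Lncpint, a RNA induced by p53, had 22.0, 21.6 and 21.6. These 9 peaks all lay in high-CpG DNA and were present in all 4 lists. The strongest at a processed pseudogene was Magef1 with 16.3, and B330016D10Rik, near Spen, led the other pseudogenes with 18.8. Atp10d, a polymorphic pseudogene in this annotation, had 18.6 and would count as a coding start if its protein-coding transcripts were used.

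The widest peak, 8018 bp at chr19:5795559-5803576, covered Malat1 together with the TEC gene Gm37376. Its fold enrichment was 19.2, with 17.4 in pool G and 17.8 in pool H. Neat1, the scaffold RNA of paraspeckles and a neighbour of Malat1, had the second widest, 7150 bp at chr19:5838702-5845851, with 15.1, and 15.6 and 11.7 in pools G and H. Both RNAs are among the most abundant nuclear transcripts. Widths of this size were reached at heart contraction genes with far lower peaks. D830005E20Rik, antisense within Trdn, which encodes triadin of the calcium release complex, had 6799 bp at chr10:33251766-33258564. That peak's fold enrichment was 7.48, and 9.11 and 7.87 in pools G and H, against 5.23 at the Trdn coding promoter. Mhrt had 6154 bp at chr14:54968742-54974895 with 8.64, and 9.64 and 8.02 in pools G and H. A peak of 4820 bp at a non-coding transcript of Myh6, which encodes the main myosin heavy chain of adult mouse heart, was also among the 10 widest, at chr14:54957654-54962473 with 4.93. Pool G gave 12.3 over 8985 bp there and pool H 4.43 over 3170 bp, so the values need not come from the same site. The Myh6 coding promoter had 10.3. Both the Myh6 peak and the Mhrt peak joined a peak at a coding start once peaks no more than 1000 bp apart were merged. These 3 peaks at contraction genes were low in CpG, as were those at Malat1 and Neat1. The others of the 10 widest were Gm16170 (6103 bp), 1810026B05Rik near Chd2 (6025 bp), Pcdh17 (5235 bp), 2810410L24Rik (4663 bp) and Peg13 (4656 bp).

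The list of long non-coding RNAs of heart and vessels held 10 genes over 1000 bp from coding starts. Of these, 5 were marked, where 9.67% of all long non-coding genes were. The genes of this and of the other lists were picked as known ones, so these shares describe known genes. Lncpint, on this list and described above as induced by p53, had 2 peaks, of 21.6 and 16.8. The highest peaks of the other marked genes among the 10 ran from 6.54 to 8.64. Mhrt, which limits hypertrophy in mouse, had 8.64 as above. Bvht, named Braveheart for its part in commitment of mouse embryonic stem cells to the cardiovascular lineage, had 8.56, with 9.71 in pool G and 7.15 in pool H. Carmn, the host of the smooth muscle microRNAs miR-143 and miR-145, had 6.54, with 7.95 and 5.98. Dnm3os, the host of miR-199a and miR-214 within Dnm3, had 6.58, with 7.29 and 5.90. All of these were in both pools' lists. H19, Miat and Mirt1 had no peak in any list, and Meg3 had 4.17 in pool G's list and 3.36 in the pseudoreplicated list of both pools, with none in the other lists. Fendrr, which starts 1.28 kb from a coding start, had a peak of 15.8 that belonged to that coding start and did not count. Hand2os1, upstream of the cardiac transcription factor gene Hand2 on the opposite strand, lies within 1000 bp of a coding start at 1 of its own starts. At its other starts it had peaks of 8.37, 2.71 and 4.25, and pool G's list held 1 peak of 9.85 across the first pair. The peak of 4.25 joined one at a coding start once peaks no more than 1000 bp apart were merged.

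**Figure D3:**
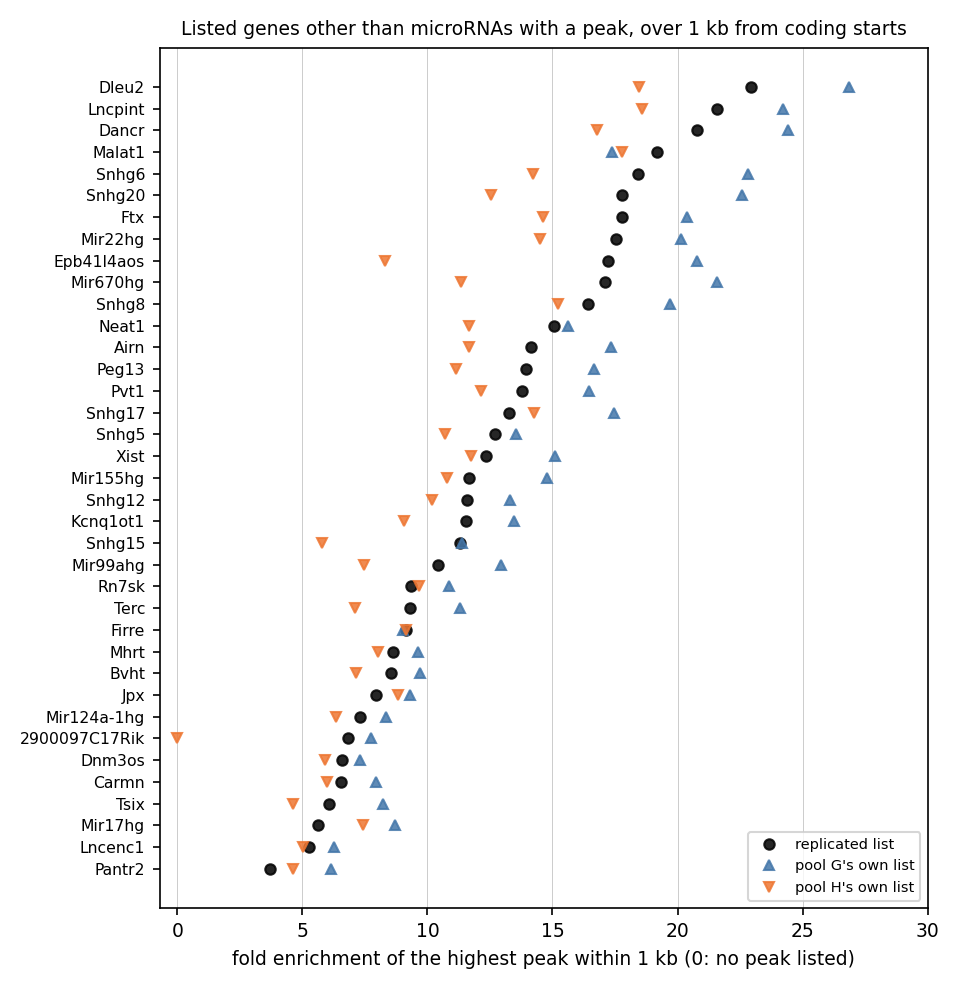
Fold enrichment of the highest peak within 1000 bp of a start, for the 37 listed non-coding genes other than microRNAs with such a peak, in the replicated list (circles) and in the lists of pool G (upward triangles) and pool H (downward triangles). Values of the replicated list run from 3.70 at Pantr2 to 22.9 at Dleu2, and 2900097C17Rik is listed at 0 in pool H.

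On the list of broadly expressed non-coding RNAs, 12 of 13 genes were marked, where 9.67% of all long non-coding genes were. Breadth of expression was not checked for each listed gene. The list includes Rn7sk and Terc, which are typed miscellaneous RNA, a group outside that share with 3.69% of its genes marked. Besides Dleu2, Malat1 and Neat1 they included Epb41l4aos (17.2), Pvt1 beside Myc (13.8), Kcnq1ot1 (11.5) and Firre (9.14). Rn7sk, the RNA that holds the elongation factor P-TEFb inactive, and Terc, the telomerase RNA, had 9.33 and 9.29. The peak at Rn7sk was named for C920006O11Rik, the start nearest its summit. The one listed gene without a counted peak, Crnde, had a peak of 22.1 that lay at a coding start. Among those with a peak in both pools Epb41l4aos differed most, with 20.8 in pool G and 8.32 in pool H. Short peaks at 2900097C17Rik, 6.83 at the highest, were found in pool G and were absent from pool H's list. The lowest of the 12 were Pantr2 with 3.70 and Lncenc1 with 5.29.

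Host genes of small nucleolar RNAs were marked in 9 of 10 listed genes, where 9.67% of all long non-coding genes were. The median of their highest peaks was a fold enrichment of 16.4, against a median of 5.35 over all 861 peaks at long non-coding genes. These genes are spliced, and the small RNAs that guide ribosomal RNA modification are cut from their introns. Dancr had 20.8, Snhg6 18.4, Snhg20 17.8 and Snhg8 16.4. Snhg17, Snhg5, Snhg12 and Snhg15 had 13.3, 12.7, 11.6 and 11.3, and Epb41l4aos is on this list too. Snhg14, an imprinted transcript best known from brain, had no peak in any list. The peaks at Dancr and Snhg8 also held the starts of Snora26 and Snora24, which are annotated genes of their own. Another peak of this kind, 21.2 at chr11:62602200-62604080, held Snord49b and lay within reach of Snord49a, Snord65 and the long non-coding gene 2410006H16Rik. The occupancy of small nucleolar RNA genes therefore includes promoters of their hosts.

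On the X chromosome, 51 peaks at non-coding starts gave 0.298 per Mb, the lowest density of the chromosomes with peaks, while chromosome 11 had the highest at 1.16 per Mb. They made up 7.20% of all peaks on the X chromosome and 7.10% on chromosome 11, against 7.47% overall. The X inactivation centre held several. Ftx had 17.8 at chrX:103615985-103617751, with 20.4 in pool G and 14.6 in pool H. Xist, expressed from the inactive X chromosome of female cells, had a peak of 12.4 and 3701 bp, with 15.1 in pool G and 11.8 in pool H. Jpx, an activator of Xist in mouse, had 7.94, with 9.31 and 8.82, and Tsix, the antisense repressor of Xist, had 6.08, with 8.23 and 4.63. Ftx was the highest and Tsix the lowest in both pools.

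Imprinted long non-coding RNAs were marked at some loci and not at others. Airn, which silences Igf2r on the paternal chromosome, had 14.2, with 17.3 in pool G and 11.7 in pool H. Peg13 within Trappc9 had 13.9, with 16.6 and 11.2, and Kcnq1ot1 within Kcnq1 had 11.5, with 13.4 and 9.07. All 3 were high in CpG. H19, Rian, Mirg, Nctc1 and Snhg14 had no peak in the replicated list or in either pool's own. In all, 7 of 14 listed X inactivation and imprinted genes were marked, where 9.67% of all long non-coding genes were. The list includes the microRNA gene Mir483, which had no peak and is outside that share. The lists hold no values per allele, so which parental copy carried the mark cannot be read.

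MicroRNA host genes were marked in 9 of 12 listed cases, where 9.67% of all long non-coding genes were. The list includes Mir6236, which is typed as a microRNA gene and is outside that share. Mir22hg had 17.5 at chr11:75461564-75463014, with 20.2 in pool G and 14.5 in pool H, and the hairpin Mir22 downstream of it lay in a separate peak of 4.36, which pool G's list joins to that of the host and pool H's gives as 5.24. Mir670hg had 17.1, Mir155hg, known from immune cells, 11.6, and Mir99ahg 10.4. Mir17hg, the host of the miR-17 to miR-92 cluster, had 5.62. Mir9-3hg had a peak of 3.41 in pool G's list only, and Mir124-2hg and Mir6236 had none. Mir99ahg and 3110039I08Rik, the genes over the miR-99a and the miR-125b-1 clusters, each had 4 peaks in both pools, spread over 360 kb and 208 kb. Their highest peaks were 10.4 and 11.8, and neither locus had a coding start within 5 kb of the highest.

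Of 60 listed microRNAs of heart and vessels over 1000 bp from coding starts, 13 had a counted peak within 1000 bp of the hairpin's annotated start (21.7%), where 4.17% of all microRNA genes did. The highest, 18.4 at chr10:122983563-122985871, lay at let-7i and at D630033A02Rik, a transcribed processed pseudogene on the same strand, 90.3 kb from the nearest coding start. It had 22.1 in pool G, in a peak of 4234 bp that also took in the next one, and 14.5 in pool H. Mir210, the hypoxia microRNA, had 8.18. Mir193a, which is not on the list and is named as one of the 2 highest of its type, had 17.4 at chr11:79710733-79712394. In the replicated list, peaks at Mir208b and Mir199a-2 were those of Mhrt and Dnm3os, and the one at Mir125b-1 that of 3110039I08Rik. In pool H's own list the highest peak within 1000 bp of Mir208b was 4.01, against 8.02 for Mhrt. Mir1a-1 lay inside a peak of 8.61 and 3520 bp that was named for B230312C02Rik, a long non-coding gene starting nearby on the other strand, and a further peak of 4.13 lay 609 bp from the hairpin's start. The muscle hairpins on chromosome 18 had 4.25 at Mir133a-1 and 9.09 at their host. Mir23a, Mir27a and Mir24-2 shared a peak of 3.46 at chr8:84208019-84208383. The TEC gene Gm37352, upstream of that cluster at chr8:84200455-84204682, had 21.0, with 26.0 in pool G and 15.5 in pool H. Mir22 had the peak of its host gene, 17.5, and Mir486, within Ank1, had one of 4.52 named for Mir3107. The peak at Mir486 joined one at a coding start once peaks no more than 1000 bp apart were merged. The remaining hairpins, Mir133a-2, Mir499, Mir208a and Mir21a among them, had no counted peak within 1000 bp.

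Peaks at non-coding gene starts mostly lay far from coding starts. Their starts were a median of 22.3 kb from the nearest coding start, and 17.7% lay within 5 kb of one. The summit lay inside a coding gene in 29.1%, against 56.7% of peaks near no start. Over all peaks it was 74.5%, a share that the peaks at coding starts, left out by the rule, largely set. In 9.02%, the peak joined a coding start's peak once peaks no more than 1000 bp apart were merged. Those only at non-coding transcripts of coding genes lay closer, at a median of 6.24 kb, with 42.1% within 5 kb. Counted from the peak's edge over both kinds, 27.8% were within 5 kb. The largest place was upstream of the nearest coding start on the opposite strand, with 363 of 1264 peaks (28.7%), followed by upstream on the same strand with 258 (20.4%) and downstream on the same strand with 228 (18.0%). Inside the coding gene, 155 were on the opposite strand and 78 on the same. Upstream of it on the opposite strand, the median distance was 18.7 kb. Antisense genes lay inside their coding neighbour in 103 of 232 cases, at a median of 5.86 kb from its start. Places and distances were not counted over all annotated non-coding genes. The shares therefore describe these peaks and do not set marked starts apart from unmarked ones.

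**Figure D4:**
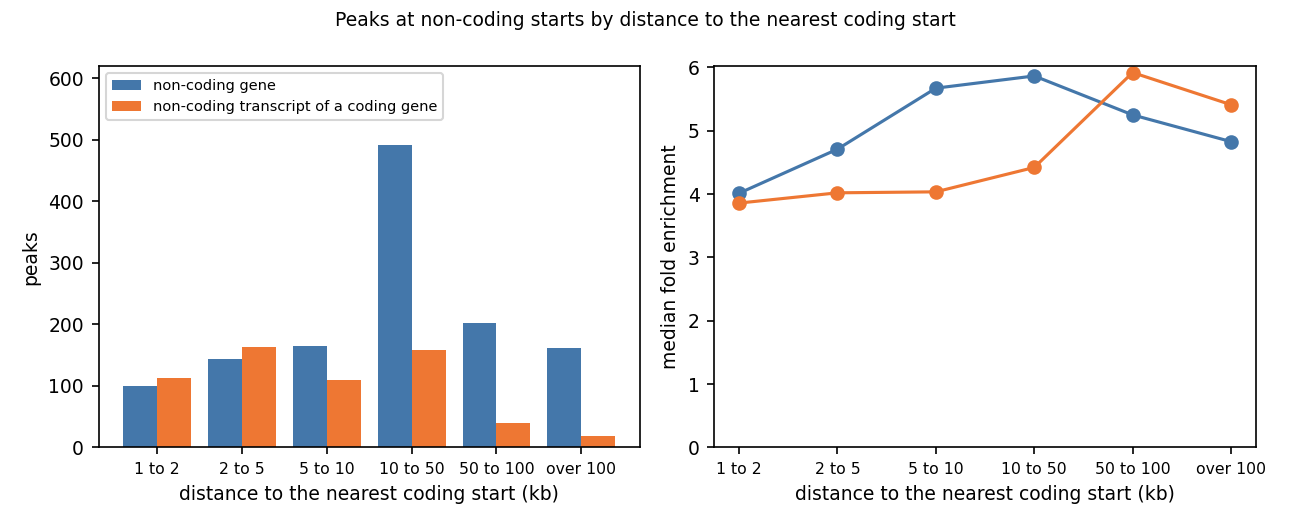
Number of peaks (left) and median fold enrichment (right), both from 0, by distance from the peak's edge to the nearest coding start in kb, for peaks at non-coding gene starts (blue) and only at non-coding transcripts of coding genes (orange). The largest bin for non-coding genes is 10 to 50 kb with 492 peaks, and the medians are lowest at 1 to 2 kb, with 4.01 and 3.86.

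Most peaks at non-coding genes had a marked coding neighbour. The nearest coding gene had a promoter peak of its own for 1023 of the 1264 (80.9%), where 63% of all 21670 coding genes had one. The coding promoter was the higher of the pair in 87.0% of those 1023. The 80.9% is a share of peaks, which had 961 different nearest coding genes, while the 63% is a share of genes. Coding neighbours of unmarked non-coding genes were not counted. For the other 241 peaks the nearest coding gene had no promoter peak, and these peaks were not lower. Their median fold enrichment was 5.58, against 5.09 for those beside a marked coding gene, and 36.9% were high in CpG, against 27.5%. The strongest of them, named after their values were seen, were Dleu2 beside Kcnrg, 1810032O08Rik beside St6galnac2 (22.7), Gm37352 beside Nanos3 (21.0) and 1810058I24Rik, 55.4 kb from Slc13a4 (20.4). G730013B05Rik (19.7) and Dubr (19.5) lay on either side of Ccdc54, at 62.7 and 142 kb.

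Non-coding genes beside heart genes were counted for lists of coding genes. Of 33 genes of cardiac transcription factors, 17 were the nearest coding gene of at least 1 peak at a non-coding gene start, where 4.43% of all coding genes were. Sarcomere and calcium handling genes had 6 of 40 and genes of endothelium and mesenchyme 8 of 40. Around the 33 transcription factor genes 130 annotated non-coding genes stood over 1000 bp from coding starts, of which 25 were marked (19.2%), against the 4.17% over all. Among the long non-coding ones 18 of 63 were marked (28.6%), against 9.67%. For sarcomere and calcium genes 4 of 24 long non-coding neighbours were marked (16.7%), and for endothelium and mesenchyme 9 of 58 (15.5%). Neighbours of 1 coding gene share a locus, and 32 of the 33, 37 of the 40 and 40 of the 40 coding genes had promoter peaks of their own.

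The 30 peaks beside cardiac transcription factors were of modest height, with a median fold enrichment of 4.28, near the 5.19 of all peaks at non-coding genes. Around Hand2, needed for the right ventricle, Hand2os1 was joined by Gm34030 with 7.03 and 3306 bp and 5033428I22Rik with 6.67, both in high-CpG DNA on the other side of the gene. B230312C02Rik lay 51.2 kb from Gata5, and its peak held the start of Mir1a-1 but not the start it was named for. At 8.61 that peak was higher than the Gata5 promoter peak of 4.13. Gm26803 lay 76.7 kb from Mef2c with 9.14, and 1700113A16Rik lay 35.2 kb from Mef2d with 11.5. Tbx20 had Gm29824 at 2.16 kb with 6.43, upstream on the opposite strand. Esrrg, a regulator of mitochondrial genes in heart, had Gm36388 within it on the opposite strand with 7.67, against 8.56 at its promoter. Near Meis2, 2810405F15Rik had 11.7. Gm49390, 46.1 kb from Gata4, had 3.43. Hopxos, within Hopx on the opposite strand, had 3.75 and was found in pool G only. Beside sarcomere genes, Gm15873 had 4.71, with 6.44 in pool G and 3.01 in pool H, at 2.41 kb from Tnni3, the cardiac troponin I gene, and Gm43360 had 4.05 within Atp2a2, which encodes a sarcoplasmic reticulum calcium pump. Beside genes of endothelium, Mir1954 had 2 peaks within Eng, of 5.38 and 5.83, and Gm37082 within Fli1 had 6.73. At Gm37082, pool G gave 26.9 over 5812 bp and pool H 6.36 over 1656 bp, for a peak of 1676 bp. The peak's edge was 1773 bp from a coding start, and the Fli1 promoter had 21.4. The pool values therefore need not come from the same site. The peaks at Hopxos, Gm43360, Mir1954 and Gm37082 joined one at a coding start once peaks no more than 1000 bp apart were merged. None of them held the start it was named for. Nor did the peaks at Gm26803, 995 bp from its start, at Gm29824 (173 bp) and at Gm49390 (26 bp).

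Presence in both pools was less common than at coding starts. Of the 1867 peaks, 1299 (69.6%) overlapped a peak of each pool's own list, where 78.5% of all peaks did, with 92.9% at coding starts and 50.2% near no start. Another 366 (19.6%) were in pool G's list only, with 14% over all peaks. In pool H's list only were 33 (1.77%, with 1.33% over all peaks), and 169 were in neither (9.05%, with 6.15% over all peaks). Pool H's list held fewer peaks in all than pool G's, and depth was not given, so a lower count in pool H and a lower depth cannot be told apart. Those found in both pools had a median fold enrichment of 6.54, against 3.35 for those in pool G only, of which the highest, at 2900097C17Rik, was 6.83. All 332 with a fold enrichment of 10 or more were in both pools, as were all 11077 such peaks of the whole list. Over the 1299 peaks, log2 fold enrichment in pool G and pool H had Pearson's r of 0.84 and Spearman's rho of 0.84 across peaks, which are not independent replicates and share their tissue type and base composition. The SD of the log2 difference was 0.44, and a pool peak that overlaps several peaks of the replicated list enters more than 1 time.

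**Figure D5:**
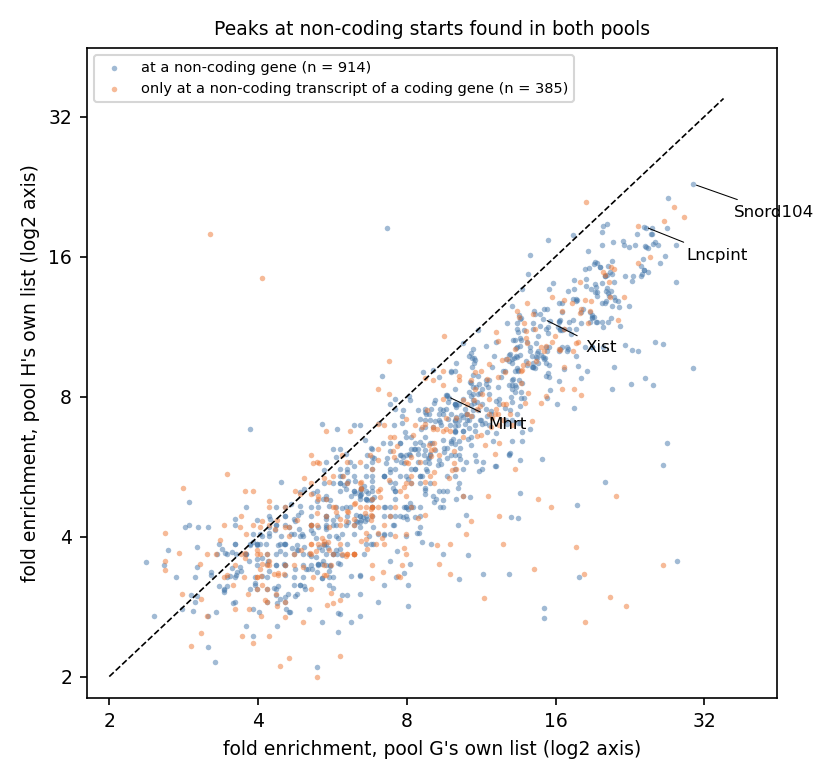
Fold enrichment in pool G's own list (x) and pool H's own list (y), both on log2 axes, for the 1299 peaks at non-coding starts found in both pools, 914 at non-coding genes (blue) and 385 only at non-coding transcripts of coding genes (orange), with the dashed line of equal values. Most points lie below the line, and Snord104 stands at the upper end with 30.3 and 22.9.

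Peaks beside the distance limits varied in height. The outermost included peaks, at Ston1 and Gm47964, lay 1000 bp from a non-coding start with fold enrichments of 3.55 and 6.15, and the nearest left out lay 1001 bp away with 4.81 and 2.88. At the other limit, the included peaks nearest a coding start, at Rnf128, Usp33 and Chd9, lay 1006, 1007 and 1007 bp from it with 3.07, 2.45 and 2.55. Just inside 1000 bp, and so counted as coding, were peaks at 996, 991 and 982 bp with 15.2, 6.06 and 2.69. Of the 1867 peaks, 68 (3.64%) had a q value over 0.05 in the authors' column, against 2.67% of all 24996 peaks. Membership of the replicated list therefore did not require a q value of 0.05 or less.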

How the data were processed

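Immunoprecipitation and sequencing of H3K4me3 was done on frozen heart tissue and, per the labels, fragments were 200 to 600 bp long. The authors deposited 4 narrowPeak lists on mm10, of which 3 are called pseudoreplicated (pool G, pool H, both) and 1 replicated (both). Technical replicates were merged before deposit. Per the labels, a possible control experiment is named but not described, and caller and threshold are "not given in the sources used here". As to values, the deposited signal value was taken to be a fold over control, an assumption because the authors' column is unnamed. The −log10 q values and summits are the authors' too.

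Starts came from GENCODE M21 and sequence from GRCm38.p6, the build of mm10. A coding start was that of a transcript typed protein_coding in a protein-coding gene. Distances ran from the peak's edge, and presence in a pool needed an overlap of at least 1 bp. A pool's value for a peak is that of its highest overlapping peak, and a value given for a listed gene is that of the highest counted peak within 1000 bp of any of its starts. Members, the 9 gene lists, tests and naming rule were chosen with earlier results of these data known. Genes were named when on a list, when among the 10 highest or widest, the 2 highest or the widest of a type with at least 10 peaks, beside a listed coding gene, or at the distance limits; not every one is given. Of 28 names on the heart and vessel list 13 matched the annotation, and of 62 listed microRNAs 61. Pools were compared with an exact sign-flip permutation test. Distances and overlaps were tested on simulated data and were equal to those of bedtools 2.31.1 for 5000 of 5000 intervals. The scripts ran on scipy 1.17.1, pandas 2.3.3, numpy 2.4.6, matplotlib 3.10.9 and Python 3.11.15. Results were recomputed with each of the other 3 lists, with peaks of −log10 q 5 or more, limits of 500 and 2000 bp, distance from the summit, other definitions of a coding start, CpG bounds of 0.5 and 0.7 and an overlap of 50%.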

Additional observations from a re-analysis of the deposited data

How the results depend on the processing

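Of 112 alternative values, 90 stayed within 1 SD of the pools or, for counts, within 1.5 times, 22 moved and 0 changed direction. For presence in both pools that SD was 21.1 percentage points, taken from the pools' unlike overlaps of 67.3% and 97.1%. Large shifts therefore counted as within it. The share was 88.8% with a −log10 q of at least 5 and 60.1% with an overlap of 50%, against 69.6%. Only the fold enrichment ratio and the width difference could change direction, because the other values are percentages or counts and cannot be negative. Peaks at non-coding starts numbered 1200 when every start of a coding gene counted as coding, and 1862 when protein-coding transcripts of any gene type did, a definition added after seeing the data. Pool H's own list gave a median fold enrichment 0.459 of that at coding starts, against 0.354, a width difference of -568 bp, against -719 bp, and 30.4% of peaks with high CpG. In that list 3.39% of all non-coding genes were marked, with 7.98% of long non-coding genes, 0.947% of pseudogenes and 2.95% of TEC genes. A −log10 q of at least 5 gave a ratio of 0.458, a width difference of -541 bp, 33.5% with high CpG and 24.7% within 5 kb of a coding start. Limits of 500 and 2000 bp gave 30.7% and 21.0% within 5 kb, against 27.8%, and 500 bp gave 29.8% with high CpG. CpG bounds of 0.5 and 0.7 gave 34.3% and 16.9%, and counting every start of a coding gene gave 20.8% within 5 kb. Leaving out a pool is the other pool's own list. No paired analysis was possible because technical replicates were merged before deposit and each pool has 1 list. Depth was not given, so nothing can be said of peaks below the threshold.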

Other observations

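Among listed genes with a peak in pool G's own list and none in pool H's list or the replicated list, Mir9-3hg had 3.41 in pool G and none in the pseudoreplicated list of both pools. Pool G's peak at Mir17hg, 8.72, also came within 1000 bp of the hairpin Mir17, which the peaks of the other lists at Mir17hg did not. Mir30a had 3.41 in pool G and 2.78 in the pseudoreplicated list of both pools. Mir10a and Mir378a had peaks of 7.98 and 16.5 within 1000 bp that lay at coding starts and were not counted. Of 1467 peaks at non-coding starts in pool H's own list, 97.1% overlapped a peak of pool G, and of the 1860 in pool G's 67.3% overlapped one of pool H. Some genes had 3 or more separate peaks at their starts: A830082K12Rik beside Nr2f1 had 4 within 3.30 kb, the highest 7.89, Gm20732 beside Zfat had 3 with the highest at 21.5, and 1810026B05Rik had 3 over 13.6 kb. Those at A830082K12Rik joined a peak at a coding start once peaks no more than 1000 bp apart were merged.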
